A study of Mus musculus with 6 samples.

Results

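The 10 genes described here encode gp130 itself (*Il6st*, also called *Gp130*), 4 receptors that pair with it or feed it a ligand (*Lifr*, *Osmr*, *Il6ra* and *Il11ra1*), and 5 cytokines that signal through it (*Lif*, *Osm*, *Il6*, *Il11* and *Clcf1*). They were picked by gene symbol from the 56748 genes in each deposited table, and all 10 were found. The measurement was poly(A) RNA-seq of uteri from sexually mature C57BL/6 females (C57BL/6J in the study's methods) at 1600 h on day 4 of pregnancy, with 3 control and 3 *Gp130* ecKO uteri. The *Gp130* ecKO females were *Ltf* iCre/+; *Gp130* flox/flox, and so carried 1 *Ltf* allele replaced by iCre. The labels call the controls WT, and the study's methods describe its controls as *Ltf* +/+ females that were either *Gp130* flox/flox or wildtype. All females had mated with fertile wildtype males. The *Ltf* driver is active in uterine epithelium, and *Ltf* is also expressed in some neutrophils and macrophages, and whether other cells carried the deletion was not tested. The labels do not say that uteri were pooled, and they do not state which uterus came from which litter.

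Gp130 is the shared signal transducer of the interleukin-6 cytokine family. LIF binds LIFR and then gp130, OSM binds OSMR together with gp130, and IL-6 and IL-11 bind their own receptor chains (IL6RA, IL11RA1), which do not signal by themselves and bring gp130 molecules together. CLCF1 acts through CNTFR, LIFR and gp130. The assembled receptors activate JAK kinases, STAT3 and the feedback inhibitor SOCS3. In the mouse uterus, LIF made by the glands around implantation is required for the embryo to attach, and IL-11 acts in the decidualising stroma.

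The summed expected count was 13960748 to 25906443 per uterus, and control 3 had the lowest. Values below are CPM, with library sizes scaled by TMM, which compare uteri for 1 gene, or deposited TPM, which are also scaled for transcript length and compare genes. Muscle markers were present in all uteri although the series text speaks of endometrium: the summed CPM of 8 smooth muscle genes was 773 to 2992 in controls and 578 to 3226 in *Gp130* ecKO. The 10 epithelium markers summed to 2580.2 to 4341 CPM in controls and 5949 to 7794 in *Gp130* ecKO, and the 10 stroma markers to 4208 to 5189 and 2258 to 3095 CPM. The epithelium list holds *Krt8* and *Cdh1*, whose proteins the study reported as higher in *Gp130* ecKO epithelium. Its sum, and ratios to it, are therefore not a measure of epithelial content alone. A multidimensional scaling used the tested genes that differed most between each pair of uteri. On its leading axis control 2 lay at 0.029, between the other controls (2.09 and 2.08) and the *Gp130* ecKO uteri (-1.47 to -1.32). Calls that differ without control 2 are therefore given with and without it. Leaving out the control nearest to the *Gp130* ecKO uteri can itself widen the difference, so calls without it are not independent support. Nothing in the labels says how the uteri were distributed over extractions or sequencing runs. The p-values set the difference between the groups against the spread between uteri within them. They cannot separate genotype from a batch that follows the groups.

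A gene was called when its difference exceeded 2-fold and its Benjamini-Hochberg FDR was below 0.05. By that rule 0 of the 8 genes with enough counts for testing were called by edgeR's quasi-likelihood F test. The background was small too, since 26 of 16605 tested genes (0.157%) were called. At an unadjusted p under 0.05, 6 of the 8 genes passed, against 25% of all tested genes. 5 of these were lower in *Gp130* ecKO (*Il6st*, *Osmr*, *Il6ra*, *Il11ra1* and *Clcf1*), where 12.9% of all genes were, and *Lif* was higher, as 12.1% were. The median log2 fold change of the 8 tested genes was -0.66, beside -0.05 over all tested genes. *Osm* and *Il11* did not pass the filter, and both were lower in *Gp130* ecKO in a fit with no filter. Other tests called some of them. edgeR's exact test and likelihood ratio test each called 3 of 8 (*Osmr*, *Il6ra* and *Clcf1*), against 7.54% and 7.93% of all genes. DESeq2 called 4 of 7 (*Lif*, *Osmr*, *Il6ra* and *Clcf1*), against 9.9%. With control 2 left out, the quasi-likelihood test called 3 of the 8 (*Osmr*, *Il6ra* and *Clcf1*), against 5.23%. *Il11* passed the filter in that fit through the counts of the remaining controls and was called there, but with no filter its adjusted p was 0.0502, so it is not counted. An exact two-sided permutation test of 3 against 3 uteri cannot give a p below 0.1, and no gene could pass 0.05 by it.

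**Figure D1:**
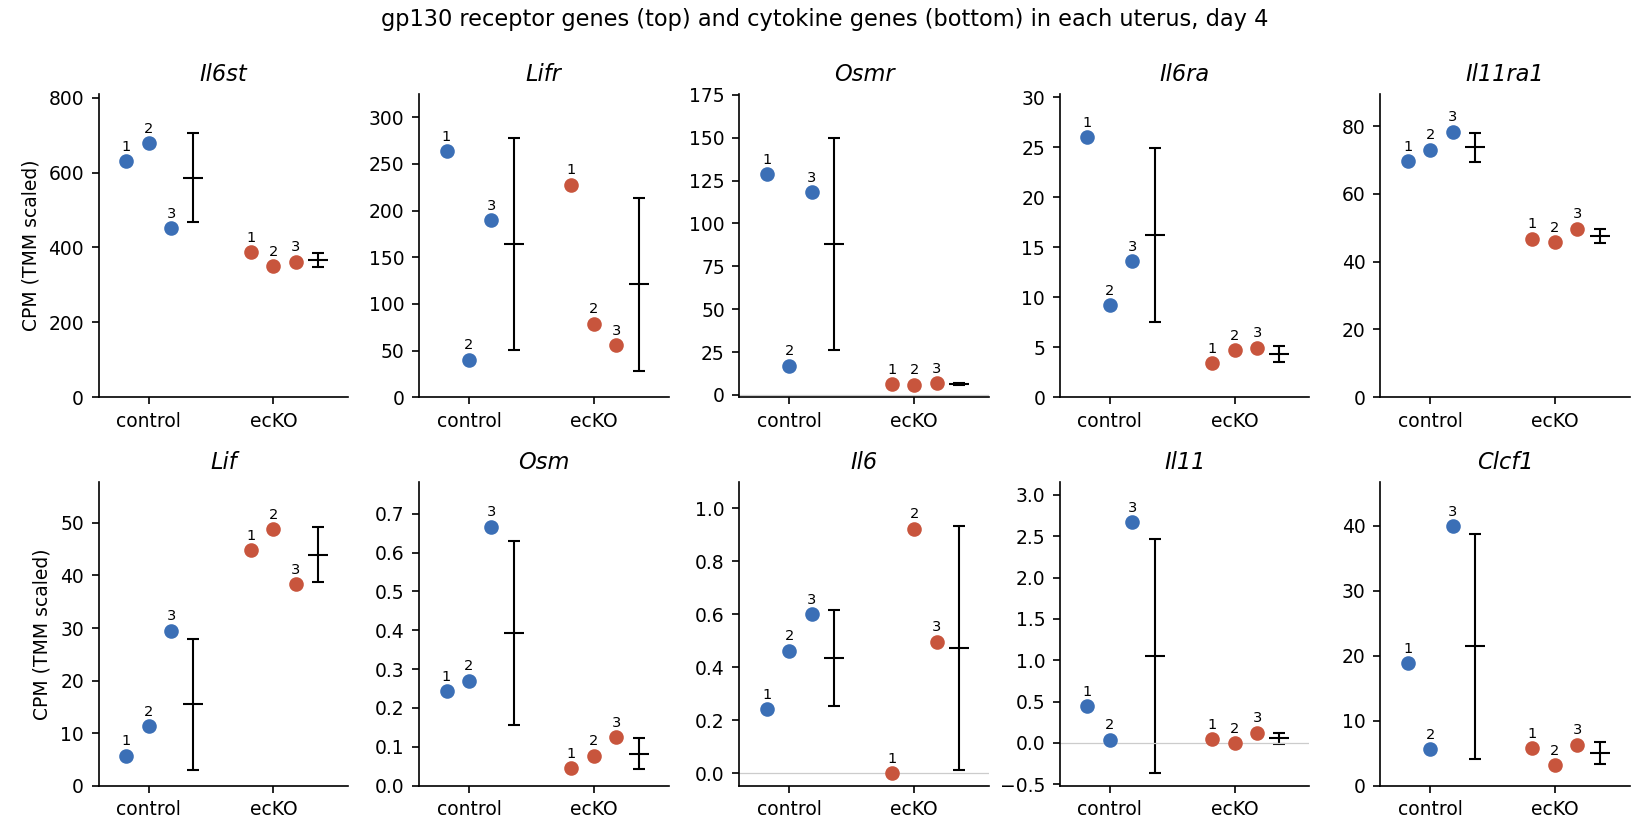
CPM of each gene in each uterus (y axis from 0 where values allow, TMM-scaled, a separate scale per gene), for control (blue) and *Gp130* ecKO (red) uteri, with replicate numbers beside the points and the mean ± SD of 3 uteri as black bars at the right of each group. The *Gp130* ecKO points lie below all control points for *Il6st*, *Osmr*, *Il6ra*, *Il11ra1* and *Osm*, and above them for *Lif*.

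Whether the 2 groups overlapped can be read from these points. The CPM ranges did not overlap for 6 of the 10 genes, and for 5 of the 8 tested, where 31.3% of all tested genes did not overlap. 4 of the 8 lay wholly lower in *Gp130* ecKO (15.6% of all genes) and 1 wholly higher (15.7%). Without control 2 the ranges of 6 of the 8 did not overlap, where 45.6% of all tested genes did not.

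*Il6st* (ENSMUSG00000021756, chr13:112600604-112646620 of GRCm39, plus strand) encodes the deleted receptor and is the check of the labels. Controls 1, 2 and 3 had 631, 678 and 452 CPM. *Gp130* ecKO uteri 1, 2 and 3 had 388, 349.8 and 362 CPM, all of them lower than any control, and control 3 was the control nearest to them. The difference on the log2 scale (*Gp130* ecKO over control) was -0.68 ± 0.21 (SE, n = 3 and 3, 95% interval -1.17 to -0.19), which is 0.624 of the control level, with an unadjusted p of 0.0133 and an adjusted p of 0.12 in edgeR's quasi-likelihood test. The gene was still well expressed in *Gp130* ecKO: 68.3 to 79.8 TPM in *Gp130* ecKO, against 97.4 to 118 TPM in controls. The deposited values are summed over the 10 annotated transcripts of the gene, so reads from the floxed exon cannot be told from reads elsewhere in the transcript. The uteri also hold stroma, muscle and vessels, and whether these carried the deletion was not tested. In whole tissue, fewer cells of a type and less RNA per cell cannot be told apart. The stroma markers were lower in *Gp130* ecKO as well, 6 of the 10 without overlap, against 15.6% of all tested genes. Per 1000 CPM of the summed stroma markers, *Il6st* was 146, 131 and 107 in controls and 172, 121 and 117 in *Gp130* ecKO, so on that scale the groups overlapped. Per 1000 CPM of the epithelium markers it was 156, 156 and 175 against 49.7, 58.8 and 59.9, with no overlap. The part of tissue composition in the *Il6st* difference was not tested.

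*Il11ra1* (ENSMUSG00000073889, chr4:41699989-41769485, plus strand), the ligand-binding chain for IL-11, had the tightest CPM of the 10 genes within each group, relative to the mean. The 3 controls had 69.7, 73.0 and 78.3 CPM, and the *Gp130* ecKO uteri 46.7, 45.8 and 49.7 CPM, with a wide gap between the groups and little spread within them. Its log2 fold change was -0.64 ± 0.14 (SE, 95% interval -0.97 to -0.30, unadjusted p = 0.00277, adjusted p = 0.0822 in edgeR's quasi-likelihood test). That is 1.55-fold lower, so the gene met the 2-fold threshold in none of the alternatives run, although the exact, likelihood ratio and DESeq2 tests put it under an FDR of 0.05. Its size was close to that of *Il6st*. As for *Il6st*, the difference moved with the stroma markers: per 1000 CPM of those markers *Il11ra1* was 16.1, 14.1 and 18.6 in controls and 20.7, 15.8 and 16.1 in *Gp130* ecKO, and the groups overlapped. Per 1000 CPM of the epithelium markers it was 17.3, 16.8 and 30.4 against 5.99, 7.70 and 8.24, without overlap. The part of stromal content in it was not tested. Of the 75-base stretches of its annotated transcripts, 16.92% also occur in the near-identical copies *Il11ra3* and *Il11ra2*, and RSEM divides such reads by its model. *Il11ra3* was at most 0.533 CPM and *Il11ra2* had 0 counts in every uterus, so little was assigned to the copies. *Galt*, which overlaps *Il11ra1* on the same strand, was 13.5 to 19.0 CPM in controls and 13.0 to 22.0 in *Gp130* ecKO.

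*Osmr* (ENSMUSG00000022146, chr15:6843053-6904450, minus strand), the OSM-specific partner of gp130, showed the largest difference among the tested genes of the set. Controls had 129, 17.1 and 118 CPM, and *Gp130* ecKO uteri 6.19, 6.0 and 6.96 CPM. The *Gp130* ecKO uteri were nearly equal, whereas control 2 was far below the other controls and still above all *Gp130* ecKO uteri. The fitted log2 fold change was -3.78 ± 0.69 (SE, 95% interval -5.40 to -2.17), or 13.8-fold lower, with an unadjusted p of 0.000776 and an adjusted p of 0.0648 in edgeR's quasi-likelihood test. Without control 2 the log2 fold change was -4.24 and the adjusted p 0.0032, and over all alternatives the adjusted p ranged from 1.42e-07 to 0.201. The groups stayed apart on the stroma scale: per 1000 CPM of stroma markers *Osmr* was 29.7, 3.29 and 28.1 in controls and 2.74, 2.07 and 2.25 in *Gp130* ecKO, without overlap.

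*Il6ra* (ENSMUSG00000027947, chr3:89771366-89820719, minus strand), the IL-6-binding chain, was 26.01, 9.18 and 13.6 CPM in controls and 3.39, 4.69 and 4.93 CPM in *Gp130* ecKO. The groups did not overlap, and control 2 was again the lowest control. On the log2 scale the difference was -1.91 ± 0.42 (SE, 95% interval -2.89 to -0.92), or 3.75-fold lower, with an unadjusted p of 0.00243 and an adjusted p of 0.0811 in edgeR's quasi-likelihood test. Without control 2 the adjusted p was 0.0321, within a range of 0.00103 to 0.247 over all alternatives. Per 1000 CPM of stroma markers the groups stayed apart by a small margin, at 1.77 to 6.0 in controls and 1.5 to 1.62 in *Gp130* ecKO. Myeloid cells also express *Il6ra*. The 6 macrophage markers summed to 115 to 159 CPM in controls and 64.8 to 134 CPM in *Gp130* ecKO. 1 of 6 (*Mrc1*) was lower without overlap, near the share of all tested genes (15.6%). *Cd68* leaned the other way with overlap, at 12.4, 11.2 and 14.4 CPM in controls and 25.8, 14.9 and 9.16 in *Gp130* ecKO. The 7 neutrophil markers summed to 5.4 to 7.44 CPM in controls and 0.949 to 4.48 CPM in *Gp130* ecKO. 4 of 7 were lower and 0 higher without overlap, against 15.6% and 15.7% of all tested genes, and *Ly6g* leaned higher with overlap. The part of macrophages and neutrophils in the *Il6ra* difference was not tested. An antisense gene, *Gm42809*, holds 4.33% of its 75-base stretches on the opposite strand, and the sources used here do not state whether counting used strand.

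*Lifr* (ENSMUSG00000054263, chr15:7120095-7226970, plus strand), the LIF-binding partner of gp130, did not separate the groups. It had 263, 40.3 and 189.6 CPM in the controls against 228, 78.8 and 55.9 CPM in the *Gp130* ecKO uteri. Each group held both high and low uteri, and the lowest and the highest value were both controls. The estimate was a log2 fold change of -0.45 ± 0.72 (SE, 95% interval -2.13 to 1.24, adjusted p = 0.723 in edgeR's quasi-likelihood test). The interval covers differences of more than 2-fold in either direction. Without control 1 the sign turned, to 0.11, without *Gp130* ecKO 1 the log2 fold change was -1.28, and without control 2 it was -0.88. Of its 75-base stretches, 9.81% also occur on the opposite strand in *Gm62219*.

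Among the cytokines, *Lif* (ENSMUSG00000034394, chr11:4207557-4222514, plus strand) was the 1 tested gene of the set that was wholly higher in *Gp130* ecKO. The controls had 5.66, 11.3 and 29.5 CPM and the *Gp130* ecKO uteri 44.8, 48.8 and 38.3 CPM. The controls spread over a several-fold range, while the *Gp130* ecKO uteri were alike, and control 3 came nearest to them. Its log2 fold change was 1.52 ± 0.53 (SE, 95% interval 0.27 to 2.77), or 2.86-fold higher, with an unadjusted p of 0.0236 and an adjusted p of 0.148 in edgeR's quasi-likelihood test. Without control 3 it was 2.37. DESeq2 gave an adjusted p of 0.0318, the lowest of the alternatives, which reached 0.318. *Lif* is made by uterine glands, and the gland list of 8 genes did not order the uteri as *Lif* did. Its sum was 1154, 275 and 149 CPM in controls and 8762, 196 and 301 CPM in *Gp130* ecKO, with *Prss29* (6546 CPM) the largest share of the sum in *Gp130* ecKO 1. The summed epithelium markers did move with the groups, 6 of 10 higher without overlap, against 15.7% of all tested genes. The markers were not alike. *Krt8* was 435, 649 and 347 CPM in controls and 1447, 1017 and 1101 in *Gp130* ecKO. *Epcam* overlapped, at 650, 379 and 348 CPM in controls and 429, 363 and 414 in *Gp130* ecKO. Per 1000 CPM of the epithelium markers *Lif* was 1.4, 2.6 and 11.4 in controls and 5.75, 8.20 and 6.34 in *Gp130* ecKO, and the groups overlapped through control 3 alone. On the stroma scale it was 1.31, 2.18 and 7.0 against 19.9, 16.9 and 12.4, without overlap. The part of epithelial content in the *Lif* difference was not tested.

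*Clcf1* (ENSMUSG00000040663, chr19:4264292-4273546, plus strand) was 18.8, 5.63 and 39.9 CPM in controls and 5.74, 3.11 and 6.30 CPM in *Gp130* ecKO. Controls 1 and 3 were above every *Gp130* ecKO uterus, and control 2 lay among them. The estimated difference was a log2 fold change of -2.08 ± 0.66 (SE, 95% interval -3.63 to -0.53), with an unadjusted p of 0.0153 and an adjusted p of 0.125 in edgeR's quasi-likelihood test. Without control 3 it was -1.28, and without control 2 it was -2.50 with an adjusted p of 0.0314, within a range of 0.0142 to 0.301 over all alternatives. The mean transcript length that RSEM weighted by abundance was 1819, 1962 and 2662 bases in controls and 1628, 1677 and 1670 in *Gp130* ecKO. The mix of annotated *Clcf1* transcripts was thus estimated as shorter in every *Gp130* ecKO uterus, as a description of 5 annotated transcripts that single reads resolve only in part. A readthrough gene on the same strand, *Gm45928*, shares 5.94% of the 75-base stretches and was 1.78, 0 and 0.533 CPM in controls and 0 in all *Gp130* ecKO uteri.

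*Osm* (ENSMUSG00000058755, chr11:4186420-4191026, plus strand), a cytokine made mainly by myeloid cells, was barely detected. It had 6, 7 and 10 counts in controls and 1, 2 and 3 counts in *Gp130* ecKO. All *Gp130* ecKO uteri were below all controls, but on single counts. The pooled rate was 4.22-fold higher in controls than in *Gp130* ecKO (95% exact counting interval 1.67 to 12.7, which covers counting error only), and in the fit with no filter the adjusted p was 0.22. The 7 neutrophil markers were low as well, at 5.4 to 7.44 CPM in sum in controls and 0.949 to 4.48 in *Gp130* ecKO. *Elane* was at 0 in all uteri and *S100a8* at most 0.85 CPM. 4 of the 7 were lower in *Gp130* ecKO without overlap, against 15.6% of all tested genes. *Ly6g* leaned the other way with overlap, at 1.58, 0.578 and 0.267 CPM in controls and 0.543, 2.19 and 2.61 in *Gp130* ecKO. The part of these cells in the *Osm* difference was not tested.

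*Il11* (ENSMUSG00000004371, chr7:4775372-4785858, minus strand) had 11, 1 and 40 counts in controls and 1, 0 and 3 counts in *Gp130* ecKO. Control 3 held most of the counts in spite of its smaller library, and control 2 lay within the range of the *Gp130* ecKO uteri. The pooled rate was 14.3-fold higher in controls (95% counting interval 5.26 to 54.5), and 4.28-fold higher without control 3 (1.3 to 18.2). Without control 2 it was 23.2-fold higher (8.52 to 88.4). In the fit with no filter the adjusted p was 0.182. The 0 counts in *Gp130* ecKO 2 allow up to 0.115 CPM, the level of 3 counts in that library.

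*Il6* (ENSMUSG00000025746, chr5:30218112-30224979, plus strand) had 6, 12 and 9 counts in controls and 0, 24 and 12 in *Gp130* ecKO. The highest and the lowest uterus were both *Gp130* ecKO, and a count of 0 in *Gp130* ecKO 1 allows up to 0.136 CPM. The log2 fold change of *Il6* was 0.22 ± 0.89 (SE, 95% interval -1.88 to 2.31, adjusted p = 0.893 in edgeR's quasi-likelihood test), and no difference was detected. The pooled rate in controls was 0.825 of that in *Gp130* ecKO (95% counting interval 0.482 to 1.4, which covers counting error only).

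**Figure D2:**
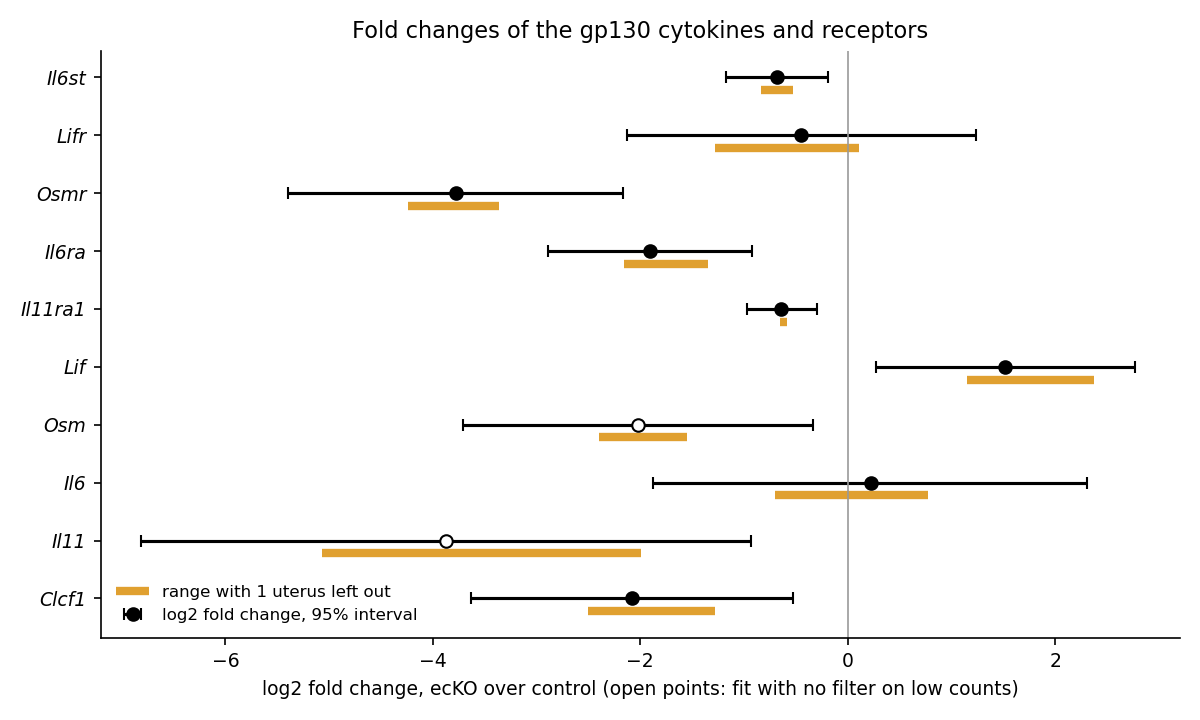
Log2 fold change of *Gp130* ecKO over control for each gene (points), with its 95% interval (black bars) and the range obtained when each uterus was left out in turn (orange). Filled points come from edgeR's fit after the filter on low counts, and open points (*Osm* and *Il11*) from the fit with no filter. The orange range crosses 0 for *Lifr* and *Il6* and for none of the other 8 genes.

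The levels of the genes relative to each other were read from deposited TPM. In controls the order was *Il6st* (108 ± 10.5 TPM, SD, n = 3), *Il11ra1* (83.8 ± 10.96), *Lifr* (28.9 ± 20.3), *Osmr* (22.3 ± 15.8), *Clcf1* (12.8 ± 8.75), *Lif* (6.07 ± 5.33) and *Il6ra* (3.29 ± 1.5), with *Il11*, *Il6* and *Osm* below 1 TPM on average. *Il6st* was above *Il11ra1*, and *Il11ra1* above *Lifr*, in ranges that did not overlap. From *Lifr* down, each gene overlapped the next in the order. In *Gp130* ecKO the first 3 places were held by the same genes, *Il6st* at 75.3 ± 6.15 TPM, *Il11ra1* at 51.3 ± 2.30 and *Lifr* at 21.8 ± 16.5. *Lif* came next at 19.2 ± 5.01 TPM, then *Clcf1* at 4.32 ± 1.21, *Osmr* at 1.62 ± 0.0462 and *Il6ra* at 0.913 ± 0.245. The ranges of *Lifr* and *Lif* overlapped. *Lif* was above *Lifr* in *Gp130* ecKO 2 (24.1 against 15.6 TPM) and *Gp130* ecKO 3 (14.1 against 9.27), and below it in *Gp130* ecKO 1 (19.3 against 40.5). *Lif*, *Clcf1*, *Osmr* and *Il6ra* did not overlap each other there. *Lif* TPM was above *Osmr* TPM in each *Gp130* ecKO uterus and below it in each control, in control 2 by little (4.08 against 4.15).

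**Figure D3:**
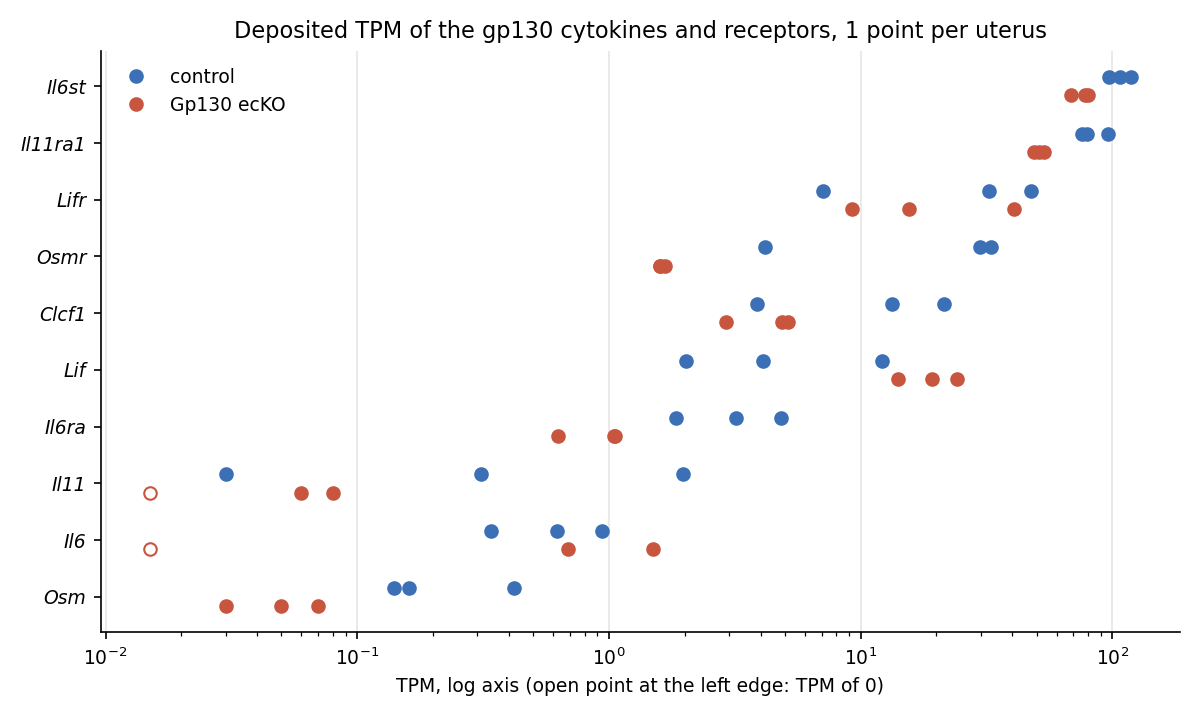
Deposited TPM of the 10 genes on a log axis, 1 point per uterus, controls in blue above *Gp130* ecKO in red, ordered by the control mean. *Il6st* and *Il11ra1* are the highest in both groups, *Lif* lies further right in *Gp130* ecKO, and *Osmr* is as high as 32.9 TPM in a control and at most 1.67 TPM in *Gp130* ecKO. Open points at the left edge mark a TPM of 0.

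Genes of the set lie next to each other in the mouse genome. *Osm* and *Lif* are neighbours on chromosome 11, on the same strand and 16.5 kb apart, and *Osmr* and *Lifr* are neighbours on chromosome 15, 215.6 kb apart and on opposite strands, with 0 protein-coding genes between either pair. Neither pair was alike in these uteri: *Lif* was higher in *Gp130* ecKO while *Osm* was lower, and *Osmr* was lower while *Lifr* overlapped. *Osmr* and *Lifr* did share their low control, control 2, at 17.1 and 40.3 CPM. *Il31ra*, which encodes a gp130-like receptor, lies 9.8 kb from *Il6st* and was not kept by the filter.

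The 250 bases upstream of the annotated start of each gene's reference transcript (GRCm39, GENCODE M39) were searched on both strands for 5 motifs. The STAT motif TTCNNNGAA was in 0 of the 10 windows and in 7.70% of 21751 windows of all protein-coding genes. The palindromic oestrogen response element was in 0 of 10 and in 0.0506% of all, and TATAAA in 0 of 10 and 11.9%. The AP-1 motif TGANTCA was in the windows of *Lif*, *Il6* and *Il11* and in 6.17% of all. The GC box GGGCGG was in those of *Il6st*, *Lifr*, *Osmr* and *Il11* and in 36.3% of all. A match describes the letters and is not evidence of a bound factor. Stretches of 60 bases are shown, 5′ to 3′ on the gene's strand, for the deleted gene, the gene that was higher and the tested gene with the largest difference, with the motif in capitals (CCGCCC is the GC box read on the other strand):
*Il6st*, chr13:112600484-112600543, GC box: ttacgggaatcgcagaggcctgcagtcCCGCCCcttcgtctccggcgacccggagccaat
*Lif*, chr11:4207313-4207372, AP-1: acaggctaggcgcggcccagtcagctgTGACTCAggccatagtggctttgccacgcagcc
*Osmr*, chr15:6904516-6904575, GC box: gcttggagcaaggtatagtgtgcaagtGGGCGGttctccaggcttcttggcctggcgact
The motif begins 93 bases before the start site in *Il6st*, 217 in *Lif* and 98 in *Osmr*.

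The other 11 genes of the gp130 family were examined as a list: cytokines and receptors such as *Cntf*, *Cntfr* and *Il27ra*. 6 of them passed the filter, 0 were called, where 0.157% of all tested genes were, and 0 had an unadjusted p under 0.05, where 25% did. *Il27ra*, a receptor chain for IL-27, was 3.27 to 4.45 CPM in controls and 1.72 to 3.11 CPM in *Gp130* ecKO (adjusted p = 0.251). *Ctf1*, which encodes the LIFR ligand cardiotrophin, was 5.74, 25.6 and 3.53 CPM in controls and 21.7, 23.4 and 25.7 CPM in *Gp130* ecKO (adjusted p = 0.365). For *Ctf1*, control 2 was level with the *Gp130* ecKO uteri, and without it the log2 fold change went from 1.01 to 2.36 with an adjusted p of 0.0179, within a range up to 0.599 over all alternatives. *Il31* and *Il11ra2* had 0 counts in all 6 uteri, where 3 counts correspond to 0.115 to 0.2 CPM.

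Of 19 genes that carry or restrain the gp130 signal, all passed the filter and 0 were called by the quasi-likelihood test. 8 had an unadjusted p under 0.05, against 25% of all tested genes, 4 higher in *Gp130* ecKO (*Jak2*, *Grb2* and *Ptprj* among them, where 12.1% of all genes were) and 4 lower (*Stat3*, *Socs1*, *Socs3* and *Ptpn2*, where 12.9% were). The list's median log2 fold change was 0.06. *Socs3*, the feedback inhibitor that binds gp130, was 47.5, 29.5 and 67.2 CPM in controls and 5.11, 10.8 and 6.92 CPM in *Gp130* ecKO, with no overlap. Its log2 fold change was -2.65 ± 0.39 (SE), with an adjusted p of 0.0548 in edgeR's quasi-likelihood test and a range of 4.63e-08 to 0.154 over the alternatives. Without control 2 it was called, at -2.87 with an adjusted p of 0.0142. *Ptprj*, a receptor tyrosine phosphatase, was 50.5 to 73.6 CPM in controls and 92.5 to 134 CPM in *Gp130* ecKO (a difference of 0.93 ± 0.22 on the log2 scale, with an adjusted p of 0.0853). It was called without control 2, at 1.16 with an adjusted p of 0.0376, within a range of 0.0091 to 0.255 over all alternatives.

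The genes whose pattern over the 6 uteri was most like that of *Il6st*, among 10259 tested genes with a mean CPM of at least 10, were *Tcf7l1* (Pearson r of log2(CPM + 0.5) = 0.988), *Jag2* (0.982), *Phf23* (0.970), *Pcolce* (0.970) and *Tgfb3* (0.964). *Tcf7l1*, for example, was 14.5, 16.5 and 11.1 CPM in controls and 8.23, 7.0 and 7.96 CPM in *Gp130* ecKO. The most like *Lif* were *Lrif1* (0.987), *Relch* (0.985), *Ofd1* (0.981), *Scyl3* (0.981) and *Gfm2* (0.980), all of which differed less between the groups than *Lif* (log2 fold changes 0.22 to 0.48). In these 6 uteri a high r can draw on both the difference between the groups and the order of uteri within a group. An r over 0.9 was reached by 70 genes with *Il6st* and 157 with *Lif*.

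**Figure D4:**
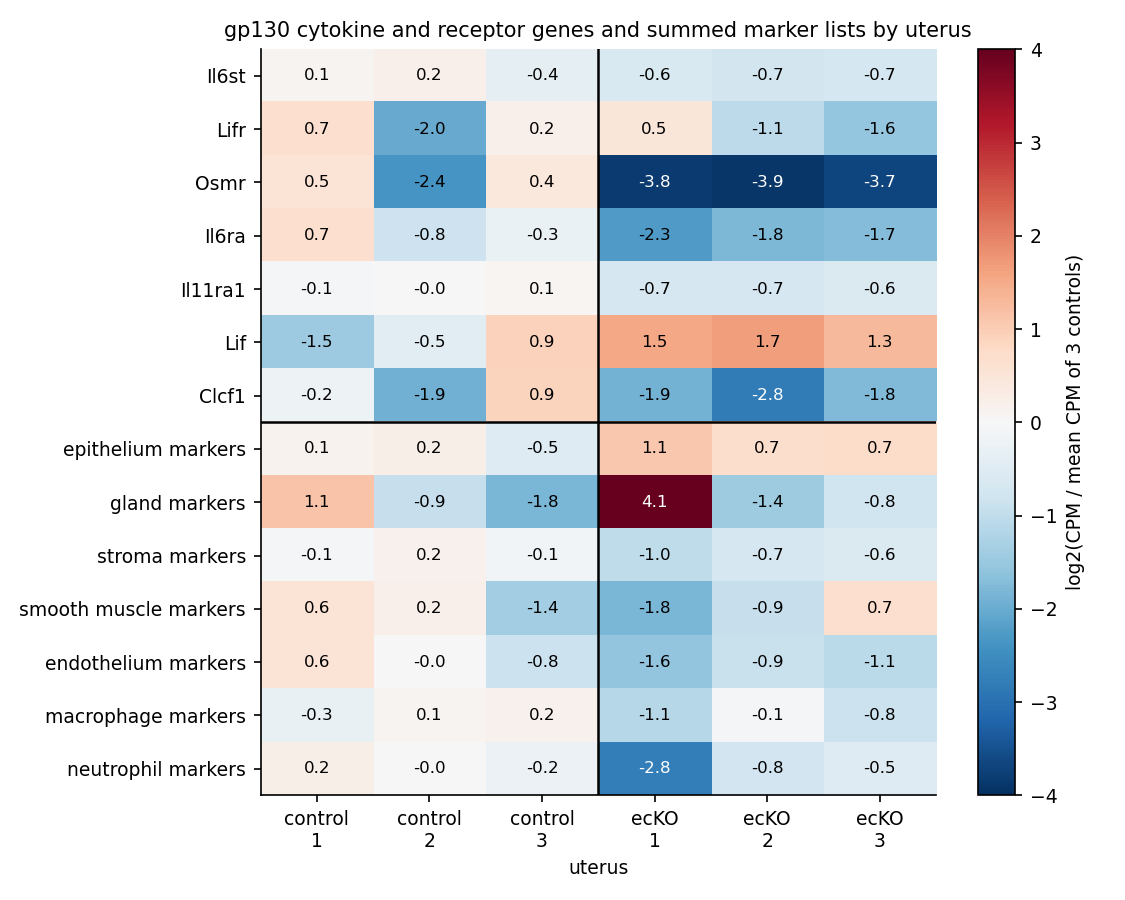
Log2 ratio of each uterus to the mean of the 3 controls (colour and printed value, clipped in colour at 4) for the 7 better detected genes and, below the line, for the summed CPM of cell type marker lists. *Osmr* and *Il6ra* are lowest in the 3 *Gp130* ecKO uteri, control 2 is low for *Lifr*, *Osmr* and *Clcf1*, and the epithelium and stroma lists separate the groups in opposite directions while gland and smooth muscle lists do not separate them.

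The endothelium markers also moved with the groups. Their 6 genes summed to 362 to 955 CPM in controls and 219 to 354 CPM in *Gp130* ecKO, and 4 of the 6 were lower without overlap. 4 mesothelium markers summed to 167 to 250.2 CPM against 67.1 to 117 CPM, though only 1 of the 4 (*Wt1*) was lower without overlap. 4 mast cell markers summed to 10.7 to 20.7 against 1.9 to 10.4 CPM, with 2 of the 4 lower without overlap. Of all tested genes, 15.6% were lower without overlap. Lymphocyte and NK markers (11.5 to 18.1 and 5.68 to 18.5 CPM), erythroid markers (124 to 241 and 33.5 to 223) and adipocyte markers (0.0405 to 6.02 and 0 to 1.23) overlapped between the groups. The part of any of these cell types in the receptor genes that were lower was not tested.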

How the data were processed

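The authors made strand-specific poly(A) libraries, sequenced them as single reads of 75 bases, trimmed them with fastp 0.23.2, filtered out ribosomal RNA with SortMeRNA, mapped them to GRCm39 with STAR 2.7.10a and estimated each gene's values with RSEM 1.3.3, per the submitters' processing notes and the study's methods. The annotation version is not given in the sources used here. The deposited expected counts are not normalized, and the deposited TPM and FPKM were scaled by transcript length and depth when the authors ran RSEM (FPKM were not used). A read that matches more than 1 gene is split among those genes by the RSEM model.

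Expected counts were rounded, and 16605 genes kept by filterByExpr were fitted in edgeR 4.0.16 (R 4.3.3) with TMM scaling and the quasi-likelihood F test, adjusted over all of them. Standard errors are the log2 fold change over the square root of F. Symbols and positions came from GENCODE M39, which holds 56017 of the 56748 identifiers. Alternatives used DESeq2 1.42.0, limma 3.58.1 and other edgeR tests. The fit was tested on simulated counts. No 2 libraries of the same group were near identical. Named were the 10 genes, the called genes (or the 3 with the smallest p) of 2 further lists, and 5 genes most like *Il6st* and *Lif*. Results of 2 genes of these lists are not reported here. The genes and lists were chosen with earlier results of these data known. Ratios to marker sums and the overlap counts without control 2 were added after seeing the data.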

Additional observations from a re-analysis of the deposited data

How the results depend on the processing

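The number of genes called (26) differed between tests. It was 7 with the legacy form of the quasi-likelihood fit, 1252 with edgeR's exact test, 1317 with its likelihood ratio test, 1588 with DESeq2, 105 with no filter on low counts, and 78 and 85 with limma on log2(TPM + 1) and log2(TPM + 0.1). With 1 uterus left out it was 1 to 897, the highest without control 2, and the cause was not tested. Of the gp130 genes, 0 were called by the quasi-likelihood test, 3 by the exact test, 3 by the likelihood ratio test, 4 by DESeq2, and 0 to 4 with 1 uterus left out, where the 4 (without control 2) include *Il11*. Median ratio size factors, library totals, unrounded counts and a call without the fold threshold left 0 called.

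Uteri of the same replicate number shared only the number: the correlations of their deviations from the group means were 0.104, 0.0707 and -0.1998 for numbers 1, 2 and 3, and control 1 correlated best with *Gp130* ecKO 3. With the replicate block 6 genes and 0 of the gp130 genes were called.

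*Il6st*, *Osmr*, *Il6ra*, *Il11ra1*, *Clcf1*, *Osm*, *Il11* and *Lif* kept their direction under all alternatives run. *Lifr* ran from -1.28 to 0.11 with 1 uterus left out, and turned to 0.11 without control 1. *Il6* turned to -0.46 with limma on log2(TPM + 0.1), and ran from -0.70 to 0.77 with 1 uterus left out, turning to -0.06 without control 1 and to -0.70 without *Gp130* ecKO 2. The log2 fold change of *Osmr* ran from -4.24 without control 2 to -2.74 with limma on log2(TPM + 1), a scale that understates the change of weakly expressed genes. *Osm*, *Il6* and *Il11* rest on few counts, with 23, 27 and 52 in all controls and 6, 36 and 4 in all *Gp130* ecKO uteri.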
